A study of Mus musculus with 2 samples.

Results

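The genes described here encode the proteins of the mitochondrial ribosome, measured in RNA of 4T1 cells, a tumour line from the mouse mammary gland. Members were the protein-coding genes whose GENCODE M21 symbol starts with Mrpl or Mrps followed by a digit, without pseudogene symbols. This rule found 78 genes among 51912 rows with Ensembl identifiers, of which 49 carry large subunit names (Mrpl) and 29 small subunit names (Mrps). The control library came from 4T1 cells labelled as control. The co-culture library came from 4T1 cells kept for 3 days in the lower chamber of a transwell system whose upper chamber held M2 macrophages, phagocytes in their alternatively activated state. The title of that library names the cells 4T2, whereas its treatment label and its column in the table name them 4T1. Each group had 1 library. Values are therefore single measurements, no test between groups can be made, and "higher" and "lower" below compare these 2 libraries only.

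Mitochondria keep ribosomes of their own, which translate the few membrane proteins of the respiratory chain and ATP synthase that mitochondrial DNA encodes. Their RNA comes from mitochondrial DNA, but every one of their proteins is encoded in the nucleus, made in the cytosol and imported. The small subunit binds messenger RNA and holds the decoding centre, and the large subunit joins amino acids at the peptidyl transferase centre and passes the chain through an exit tunnel to the inner membrane. Some of these proteins have bacterial counterparts and others are found only in mitochondria.

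Promoters of such genes are known for sites of the factors NRF1, GABP (an ETS family factor) and YY1, so 4 motifs were searched on both strands in RefSeq promoters of GRCm38.p6, which run from 250 bases before the start site to 50 bases after it. The table held 69 of the 78 members and 8244 detected protein-coding genes, where detected means a mean of at least 1 over both libraries in TPM, read abundance scaled by transcript length and library total. The NRF1 motif, whose matches stand in capitals in the run of Mrpl45, was in 13 member promoters (18.8%) and in 12.0% of all 8244. The ETS motif CCGGAAG was in 24 member promoters (34.8%) and in 20.8% of all. The YY1 motif AAGATGGC was in 12 member promoters (17.4%) and in 5.37% of all, and the TATA box TATAAA was in 4 (5.80%) and in 495 of all. At least one of the first 3 motifs stood in 41 member promoters (59.4%) and in 33.7% of all. The median GC content was 58.3% in member promoters and 61.7% in all. A match is a run of letters and no evidence that a factor was bound there. The following runs are the 120 bases before the start site of 4 members, chosen because they hold matches and no annotated exon, with matches in capitals. Mrpl52 is the most abundant member, Mrpl45 has more NRF1 matches than the other members, and Mrpl34 and Mrpl58 both hold an ETS match while their ratios had opposite signs.
Mrpl52, chr14:54426789-54426908, plus strand: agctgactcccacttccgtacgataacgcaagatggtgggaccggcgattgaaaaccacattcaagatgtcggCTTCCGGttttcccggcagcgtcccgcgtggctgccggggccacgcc
Mrpl45, chr11:97315596-97315715, plus strand: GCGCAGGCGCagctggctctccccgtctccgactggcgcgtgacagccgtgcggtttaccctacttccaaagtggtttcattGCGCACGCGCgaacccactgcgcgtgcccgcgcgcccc
Mrpl34, chr8:71464806-71464925, plus strand: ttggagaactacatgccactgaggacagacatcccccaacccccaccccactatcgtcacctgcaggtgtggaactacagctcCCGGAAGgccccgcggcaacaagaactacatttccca
Mrpl58, chr11:115403632-115403751, plus strand: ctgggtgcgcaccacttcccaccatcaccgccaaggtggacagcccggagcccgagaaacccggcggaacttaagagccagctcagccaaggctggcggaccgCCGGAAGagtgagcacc
The match begins 47 bases before the start in Mrpl52, 37 bases before it in Mrpl34 and 17 bases before it in Mrpl58, which has a further match across the start. In Mrpl45 the matches begin 120 and 38 bases before the start, and another lies after it. The median log2 ratio of co-culture to control, explained below, was -0.28 over the 13 members with the NRF1 motif and -0.04 over the 56 without. It was -0.08 with and -0.12 without the ETS motif, -0.11 with and -0.08 without the YY1 motif, and -0.19 with and -0.08 without the TATA box. Of the 13 members with the NRF1 motif 10 are large subunit genes. The same medians were not taken over all detected genes.

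Markers of the cells were read first. Krt8 and Krt18, keratins of the epithelial line, had 548 and 439 TPM in the control and 630 and 484 TPM in co-culture, while Epcam was listed at 0 in both libraries and Cdh1 did not exceed 0.04 TPM. Of 24 macrophage markers 2 were detected, Cd68 and Cd14, and 14 were listed at 0 in both libraries, among them Adgre1, Ptprc and Tyrobp. The other 22 markers summed to 0.25 TPM in control cells and 0.50 TPM after co-culture, and with Cd68 and Cd14 the sums were 66.8 and 40.7 TPM. In RNA from a bulk culture, a change in the share of cells of one state and a change in RNA per cell cannot be told apart.

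All 78 members were detected in both libraries. Together they took 0.616% of all TPM in the control and 0.578% in co-culture. The large subunit genes took 0.396% and 0.377%, and the small subunit genes 0.220% and 0.201%. TPM is scaled by transcript length, which allows only a rough comparison of levels between genes. Reads shared with a copy or an overlapping gene can still shift a level. Apart from Mrpl12, a stalk protein present in several copies, these proteins are known to occur once per ribosome, yet their TPM values were far from equal. How much of this spread came from the measurement was not tested. The highest member had 92.6 times the TPM of the lowest in the control and 84.1 times in co-culture. Mrpl52, a mitochondria-specific protein of the central protuberance, was highest in both libraries, with 438 TPM in control cells and 436 TPM after co-culture. Mrpl13 followed in both libraries with 249 and 224 TPM. Mrpl30 was the third in the control with 203 TPM, but had 154 TPM in co-culture, below Mrps21, Mrpl33, Mrpl42 and Mrpl14. Mrpl1, which forms the L1 stalk near the exit site, was lowest in both libraries, with 4.73 TPM in control cells and 5.19 TPM after co-culture. Mrpl19 and Mrpl23 were next in the control, at 8.58 and 9.51 TPM. The value of Mrpl23 is uncertain, because a near-identical copy took a larger value than the gene (described below). In the small subunit Mrps18b was highest in the control with 183 TPM, and Mrps21 was highest in co-culture with 210.3 TPM. Mrps31 was the lowest small subunit gene in both libraries, with 12.3 and 15.8 TPM. The median level was 55.1 TPM in control cells and 57.7 TPM after co-culture over the large subunit genes, against 76.8 and 72.5 TPM over the small subunit genes. The order of the members was largely kept between libraries, with r = 0.95 across the 78 genes for log2(TPM + 1), a correlation across genes that share both libraries.

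**Figure D1:**
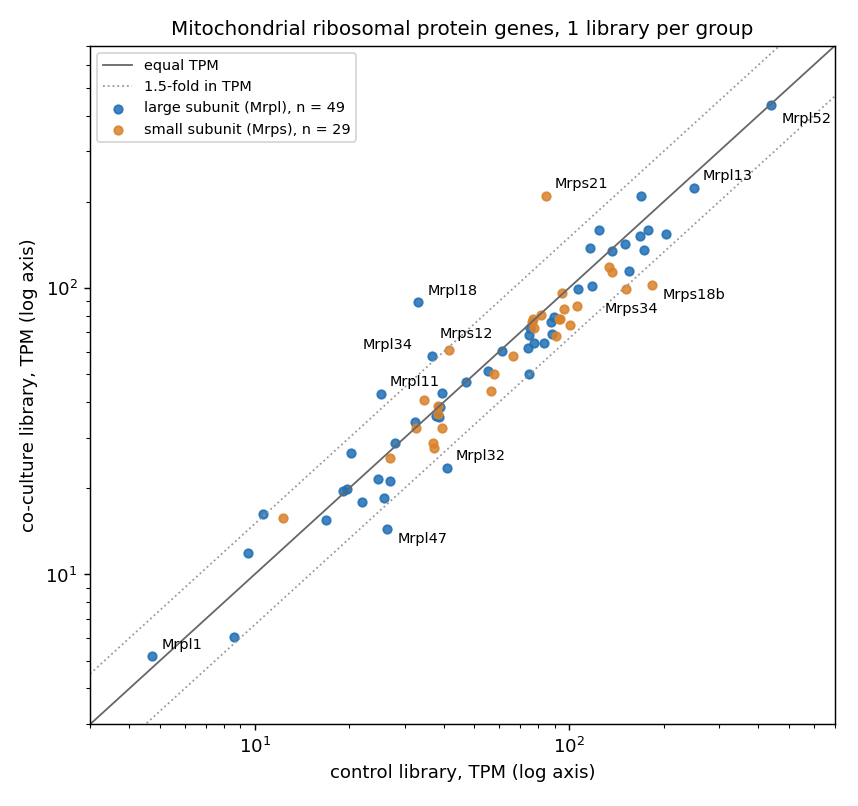
TPM of each of the 78 members in the control library (x axis) and the co-culture library (y axis), both on log axes, with large subunit genes in blue and small subunit genes in orange. Most points lie near the line of equal TPM, from Mrpl1 at 4.73 and 5.19 TPM to Mrpl52 at 438 and 436 TPM, and Mrpl18 and Mrps21 lie farthest above it.

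Most members had slightly lower values in co-culture. The difference was taken as log2((co-culture TPM + 1)/(control TPM + 1)), a scale that understates changes of low genes. Of the 78 members 56 were lower and 22 were higher, so 71.8% were lower, against 35.4% of the 11258 detected genes of all kinds and 34.6% of the 10367 that code for proteins. The median log2 ratio was -0.12 for the members and 0.17 for all detected genes, and 65 of the 78 members lay below the median of all detected genes. Differences were small. By a 1.5-fold limit 4 members were lower and 4 were higher, which is 5.13% of the members in each direction, while 6.37% of detected genes were that much lower and 18.6% that much higher. By a 2-fold limit no member was lower and 2 were higher, against 2.14% and 4.95% of detected genes. The share at least 1.5-fold lower was thus near the background, and the share at least 1.5-fold higher was below it.

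**Figure D2:**
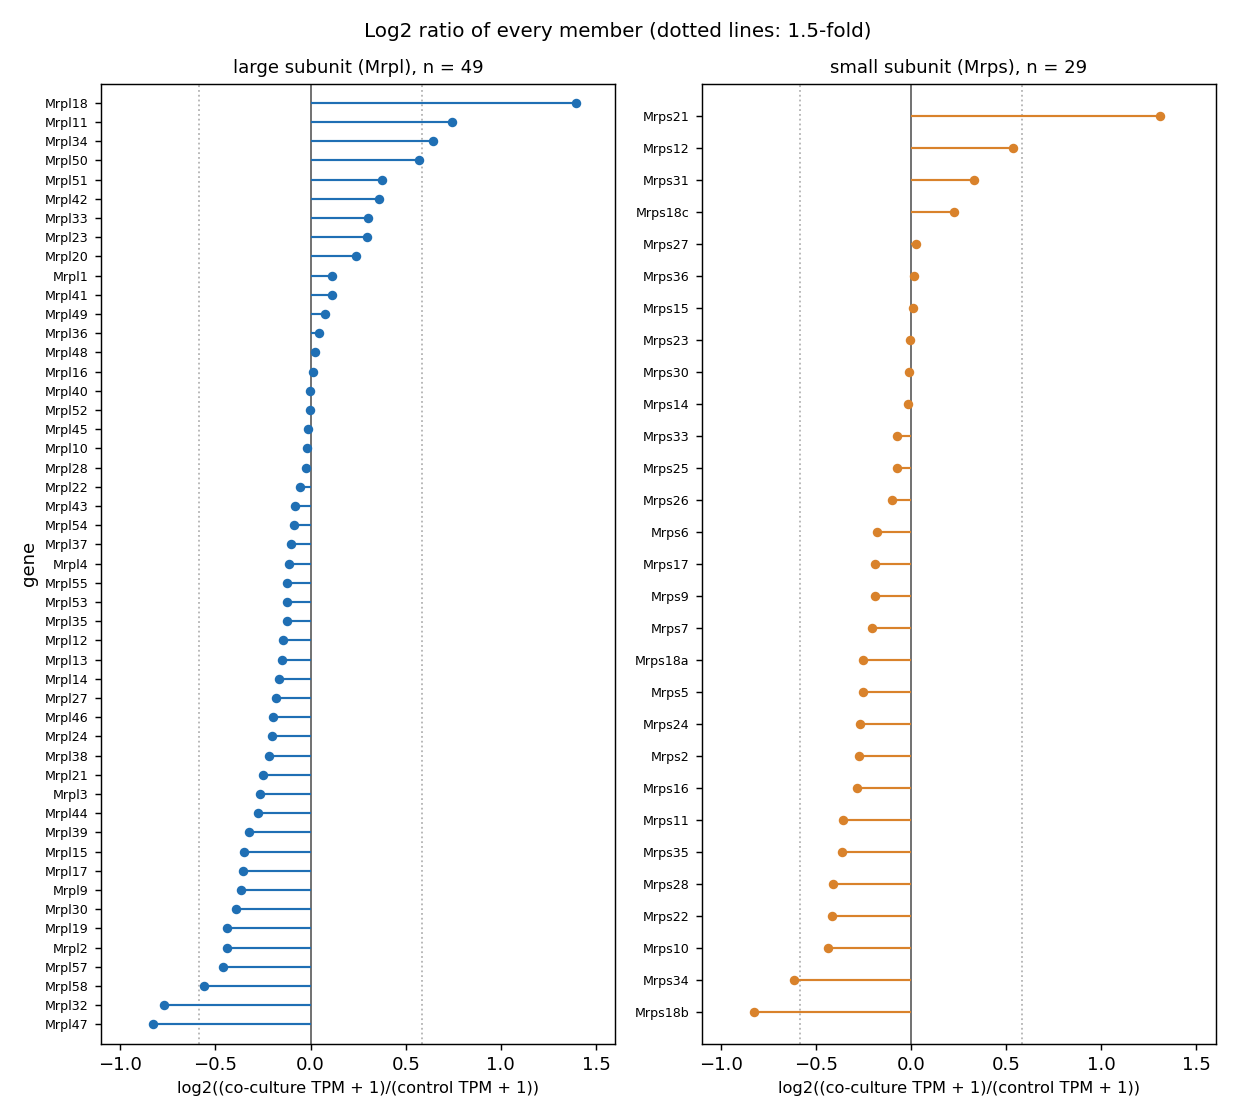
Log2 ratio of every member on the x axis, ranked within the 49 large subunit genes (left) and the 29 small subunit genes (right), with dotted lines at 1.5-fold. Bars to the left of 0 are lower in co-culture, and Mrpl18 and Mrps21 have the longest bars at 1.40 and 1.31.

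The large and small subunits were similar in this respect. Of the large subunit genes 34 of 49 were lower (69.4%), with a median of -0.11 and with 25th and 75th percentiles of -0.27 and 0.05. Of the small subunit genes 22 of 29 were lower (75.9%), with a median of -0.19 and percentiles of -0.29 and -0.01. The medians differed by 0.08 on the log2 scale, less than the range between the percentiles within either subunit, by 0.01 when the 21 members that overlap another detected gene were left out, and by 0.14 after trends on length and GC content were removed. Cryo-EM structures place the products of Mrps30 and Mrps18a in the large subunit despite their names, and that of Mrps36 in the oxoglutarate dehydrogenase complex. Mrps30 had 32.7 TPM in control cells and 32.5 TPM after co-culture, Mrps18a had 93.2 and 78.2 TPM, and Mrps36 had 76.8 and 77.7 TPM. Another 5 ribosomal proteins carry other symbols. Chchd1 had 178 TPM in control cells and 130 TPM after co-culture (log2 ratio -0.45), Aurkaip1 113 and 96.9 TPM, Gadd45gip1 23.0 and 20.01 TPM, Dap3 111 and 108 TPM, and Ptcd3 23.6 and 28.7 TPM. With subunits taken from the structures, the medians were -0.12 over 52 large subunit genes and -0.19 over 30 small subunit genes.

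Members with a bacterial counterpart and members without one also had similar ratios. The 46 with a counterpart had a median of -0.17 with 33 lower, and the 31 without had a median of -0.08 with 23 lower. Their levels differed more. The median control TPM was 82.2 for members with a counterpart and 38.9 for those without, and in co-culture it was 70.8 and 38.9 TPM. Of those with a counterpart 4 were at least 1.5-fold higher (8.70%, against 18.6% of detected genes). That much lower were 2 of them (4.35%, against 6.37% of detected genes). Of those without, 0 were that much higher and 2 that much lower (6.45%). With a pseudocount of 0.1, Mrpl50, which has no counterpart, passed the limit too, at 0.61.

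Mrpl18 had the highest ratio. This gene (ENSMUSG00000057388; chromosome 17 of GRCm38, 12911349 to 12916345, minus strand) encodes the counterpart of bacterial L18, a neighbour of 5S RNA in bacteria. It had 33.2 TPM in control cells and 89.1 TPM after co-culture, which gives a log2 ratio of 1.40. Its 5′ end overlaps that of Tcp1, a chaperonin subunit gene on the other strand, by 645 bases. Tcp1 had 322 TPM in control cells and 347 TPM after co-culture. The sources used here do not give the strandedness of the libraries, so reads in that stretch could have been counted for either gene. Mrps21 (ENSMUSG00000054312; chromosome 3, 95862634 to 95871519, minus strand), a platform protein of the small subunit, had 84.4 TPM in control cells and 210.3 TPM after co-culture, which gives a log2 ratio of 1.31. It overlaps no other detected gene. Its 3 pseudogene copies in the table were all listed at 0 TPM in both libraries.

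Mrpl11 and Mrpl34 were the other members at least 1.5-fold higher. Mrpl11, at the base of the stalk that recruits translation factors, had 25.2 TPM in control cells and 42.8 TPM after co-culture (log2 ratio 0.74). Mrpl34 had 36.6 TPM and 57.7 TPM (0.64). With the TMM scaling both fell short of the limit, at 0.56 and 0.46, and with the median ratio scaling Mrpl34 did, at 0.53. Just short of the limit were Mrpl50, with 10.6 and 16.3 TPM, and Mrps12 of the decoding centre, with 41.5 and 60.6 TPM. Their log2 ratios were 0.57 and 0.54. The next members on this side were Mrpl51 (0.38), Mrpl42 (0.36), Mrps31 (0.33), Mrpl33 (0.30), Mrpl23 (0.30, described below with its copy) and Mrpl20 (0.24).

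Mrps18b, Mrpl47, Mrpl32 and Mrps34 were at least 1.5-fold lower. Mrps18b (ENSMUSG00000024436; chromosome 17, 35910379 to 35916389, minus strand) is 1 of 3 mammalian relatives of bacterial S18. In the split above, Mrps18b and Mrps18a were still counted without a counterpart, because that split followed systematic protein names (mS40 and mL66). Mrps18b had 183 TPM in control cells and 103 TPM after co-culture, which gives a log2 ratio of -0.83. Its paralogs went from 93.2 to 78.2 TPM (Mrps18a) and from 34.7 to 40.7 TPM (Mrps18c), with ratios of -0.25 and 0.22, so the 3 relatives did not share a direction in these libraries. Mrpl47, a protein at the rim of the exit tunnel, had 26.4 TPM in control cells and 14.4 TPM after co-culture (-0.83). It overlaps both Ndufb5 and Actl6a on the opposite strand. Mrpl32, which the m-AAA protease of the inner membrane cuts to its mature form, had 40.9 and 23.6 TPM (-0.77). Afg3l2 and Spg7, which encode the subunits of that protease, had ratios of 0.26 and 0.04. Mrps34 had 152 TPM in control cells and 99.1 TPM after co-culture (-0.61), and overlaps Nme3 on its own strand and Mapk8ip3 on the other. It was no longer past the limit after trends on length and GC content were removed, at -0.45. Mrpl58, a peptidyl-tRNA hydrolase that can free stalled ribosomes, lay just short of the limit, with 74.5 and 50.2 TPM and a ratio of -0.56.

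By place in the ribosome, members around the peptidyl transferase centre and the exit tunnel had a median of -0.15. Of these 10 genes 8 were lower (80.0%, against 71.8% of all members and 35.4% of detected genes). Mrpl47 was among the lower ones, and Mrpl16 and Mrpl23 were higher. In this region Mrpl2 had 156 TPM in control cells and 115 TPM after co-culture, Mrpl3 77.6 and 64.4 TPM, Mrpl4 107 and 98.9 TPM, and Mrpl45, which ties the ribosome to the inner membrane, 38.9 and 38.5 TPM. Mrpl22, Mrpl24, Mrpl27 and Mrpl16 had ratios of -0.06, -0.20, -0.18 and 0.01. Of the stalk genes, Mrpl10 had 61.1 and 60.2 TPM and Mrpl12 had 169 and 152 TPM, so Mrpl11 stood apart from its partners. The central protuberance is the part that holds 5S RNA in bacterial ribosomes. The 7 genes listed for it ran from -0.22 (Mrpl38) to 0.03 (Mrpl48), but the list leaves out Mrpl18 and Mrpl58, whose products also lie there and whose ratios were 1.40 and -0.56. The other listed genes were Mrpl46 at -0.20, Mrpl55 at -0.12, Mrps30 at -0.01, Mrpl52 at -0.01 and Mrpl40 at -0.00. In the head of the small subunit 5 of 6 genes were lower (83.3%). They ran from Mrps10 at -0.44 through Mrps7 (-0.21), Mrps9 (-0.19), Mrps33 (-0.07) and Mrps14 (-0.02) to Mrps31 at 0.33. Regions of so few genes cannot be told apart from the members as a whole by such shares. Genes of the decoding centre, the mRNA entry side and the platform split, with Mrps11, Mrps24 and Mrps5 at -0.36, -0.27 and -0.25, and Mrps12 and Mrps21 on the other side.

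Among large subunit members outside these regions and not yet described, the lowest log2 ratios were those of Mrpl57 at -0.46, Mrpl19 at -0.44, Mrpl30 at -0.39, Mrpl9 at -0.37, Mrpl17 and Mrpl15 at -0.35 and Mrpl39 at -0.33. Mrpl44, which has an RNase III-like fold, had 21.9 TPM in control cells and 17.9 TPM after co-culture (-0.28). In between were Mrpl21, Mrpl14, Mrpl13, Mrpl35, Mrpl53, Mrpl37, Mrpl54, Mrpl43 and Mrpl28, with ratios from -0.25 to -0.02. Mrpl36, Mrpl49, Mrpl41 and Mrpl1 had ratios from 0.05 to 0.11. Of the remaining small subunit members, Mrps22, Mrps28, Mrps35, Mrps16 and Mrps2 had ratios of -0.42, -0.41, -0.36, -0.29 and -0.28. Mrps17, Mrps6, Mrps26, Mrps25, Mrps23, Mrps15 and Mrps27 lay between -0.19 and 0.02.

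Near-identical copies bear on the level of Mrpl23. Of the 78 members, 22 had pseudogene copies in the table, defined as at least 90% identity over at least 50% of the coding sequence. Of these 41 copies 36 were listed at 0 TPM in both libraries, and 2 had a mean TPM of at least 1. Mrpl23 (chromosome 7, 142532686 to 142540747) had 9.51 TPM in control cells and 11.9 TPM after co-culture, which gives a log2 ratio of 0.30. Its processed pseudogene Mrpl23-ps1 (chromosome 2, 74591330 to 74591909) had 208 TPM in control cells and 173 TPM after co-culture, a ratio of -0.26. The pseudogene matches coding bases 96 to 516 of the gene, to its last base, without a mismatch over 421 bases, and the first 120 of these are shown to make plain that reads from either locus carry the same letters.
Mrpl23 and Mrpl23-ps1, coding bases 96 to 215: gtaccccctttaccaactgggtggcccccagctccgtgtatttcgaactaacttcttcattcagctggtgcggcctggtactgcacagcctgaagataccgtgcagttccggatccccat
Summed over both loci the values were 217 TPM in control cells and 185 TPM after co-culture, with a ratio of -0.23, so the sign of the gene's ratio depends on how shared reads were divided. In control cells this sum would lie between Mrpl13 and Mrpl30 in the order of levels. How much of it came from either locus was not tested. Mrpl48 had 19.2 and 19.5 TPM and its copy Mrpl48-ps 6.69 and 9.47 TPM, with a ratio of 0.16 for their sum.

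Many members start close to another gene on the opposite strand. In some of these pairs the 5′ ends overlap, as in Mrpl48 and Rab6a (892 bases) and Mrpl43 and Twnk (780 bases). Because strandedness is not given, reads there could have been counted for either gene. A protein-coding gene on the opposite strand with a start site within 1000 bases, head to head, was annotated for 33 of the 78 members (42.3%), against 18.3% of detected protein-coding genes. The share was 24 of 49 for the large subunit and 9 of 29 for the small subunit. The neighbours were detected for 29 members, and 12 of these 29 had a ratio of the same sign as the member (41.4%). Over all genes the share was 57.8% of 811 detected head-to-head pairs. Such shares depend on how many genes of each kind were lower. That was 71.8% of all 78 members, 44.8% of the 29 neighbours and 35.4% of detected genes. The gap between the 2 shares is therefore not read as a trait of the members. Across the 29 points r was -0.16, against 0.21 across all 811 pairs, as a description of genes that share both libraries. Mrpl46 and Mrps11 are neighbours of each other, so their pair stands among the 29 points from both sides, and both were lower.

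The widest contrast was that of Mrps18b and Ppp1r10, which encodes a regulatory subunit of protein phosphatase 1 in the nucleus. Their annotated starts lie 45 bases apart. Ppp1r10 had 4.71 TPM in control cells and 20.6 TPM after co-culture, which gives a log2 ratio of 1.92, while Mrps18b had a ratio of -0.83. Mrpl57 and Ska3, a gene of the spindle and kinetochore, also differed in sign, with Ska3 at 12.6 TPM and 22.7 TPM. Mrpl27 had a ratio of -0.18 and its neighbour Eme1, a gene of DNA repair, had 6.92 and 14.1 TPM. Mrps12 starts head to head with Sars2, the mitochondrial seryl-tRNA synthetase gene. Sars2 had 11.8 TPM in control cells and 9.24 TPM after co-culture (-0.33), so the ratios of this pair of translation genes had opposite signs. The 170 bases between the RefSeq start of Mrps12 and the annotated start of Sars2 hold no match to the 4 motifs and are shown as the whole stretch that separates the pair.
Mrps12, chr7:28741822-28741991, minus strand: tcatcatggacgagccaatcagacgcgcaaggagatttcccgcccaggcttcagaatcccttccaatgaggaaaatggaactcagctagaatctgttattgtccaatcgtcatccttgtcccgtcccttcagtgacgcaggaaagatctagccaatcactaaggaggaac
Other neighbours encode mitochondrial or ribosomal proteins. Mrpl36 had a ratio of 0.05 with Ndufs6 at -0.13, Mrpl47 -0.83 with Ndufb5 at -0.27, Mrpl43 -0.08 with the helicase gene Twnk at 0.51, and Mrpl49 0.07 with Fau, a cytosolic ribosomal protein gene, at -0.31. Mrpl51 and Ncapd2, a condensin gene, were both higher, at 0.38 and 0.58.

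**Figure D3:**
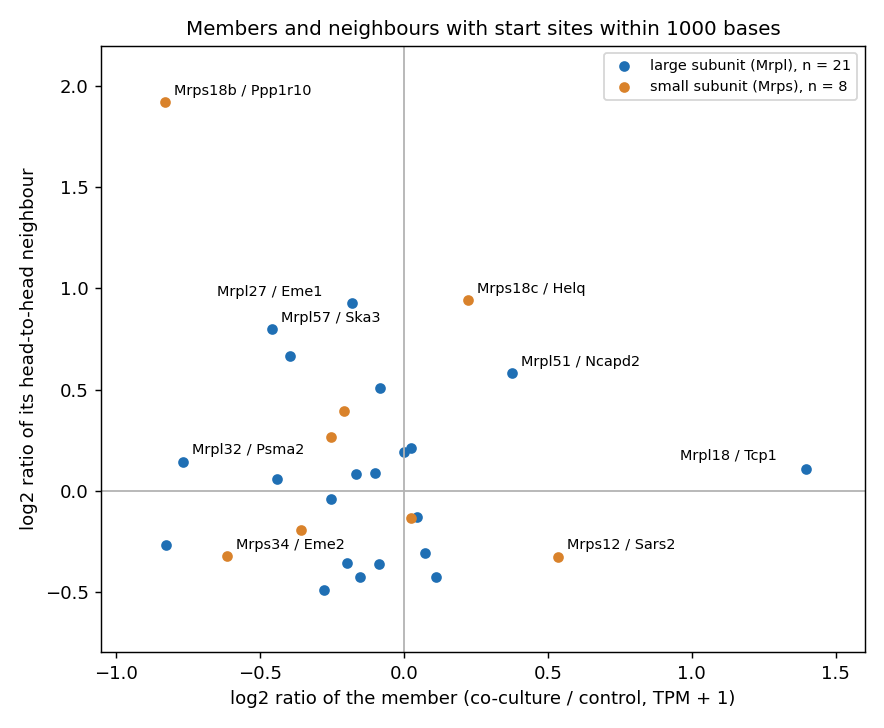
Log2 ratio of 29 members (x axis) against that of the detected gene that starts head to head within 1000 bases (y axis), with large subunit genes in blue and small subunit genes in orange. Points are spread over all quadrants, with Mrps18b and Ppp1r10 at -0.83 and 1.92 in the upper left.

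Genes for proteins of the cytosolic ribosome were lower more uniformly than genes for those of the mitochondrial ribosome. Of 79 detected cytosolic ribosomal protein genes 76 were lower (96.2%, against 35.4% of detected genes), with a median of -0.25. They ranged from -0.59 (Rpl12) to 0.22 (Rpl27). The mitochondrial members ranged from -0.83 to 1.40. Nuclear genes for subunits of the respiratory chain and ATP synthase had a median of -0.08. Most of their complexes also hold products of the mitochondrial ribosome. Of these nuclear genes 47 of 79 were lower (59.5%, against the same 35.4%). They ranged from Cox6a2, with 6.52 TPM in control cells and 0.34 TPM after co-culture, to Sdhd, a gene of complex II, which holds no such product, with 110 and 207 TPM. Once trends on length and GC content were removed, 63 of the 79 cytosolic ribosomal protein genes were below 0. So were 28 of the 79 nuclear respiratory chain and ATP synthase genes, and 34.1% of all detected genes. The counts below the median of all detected genes were then 77 and 54. These groups were compared by counts and medians only.

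**Figure D4:**
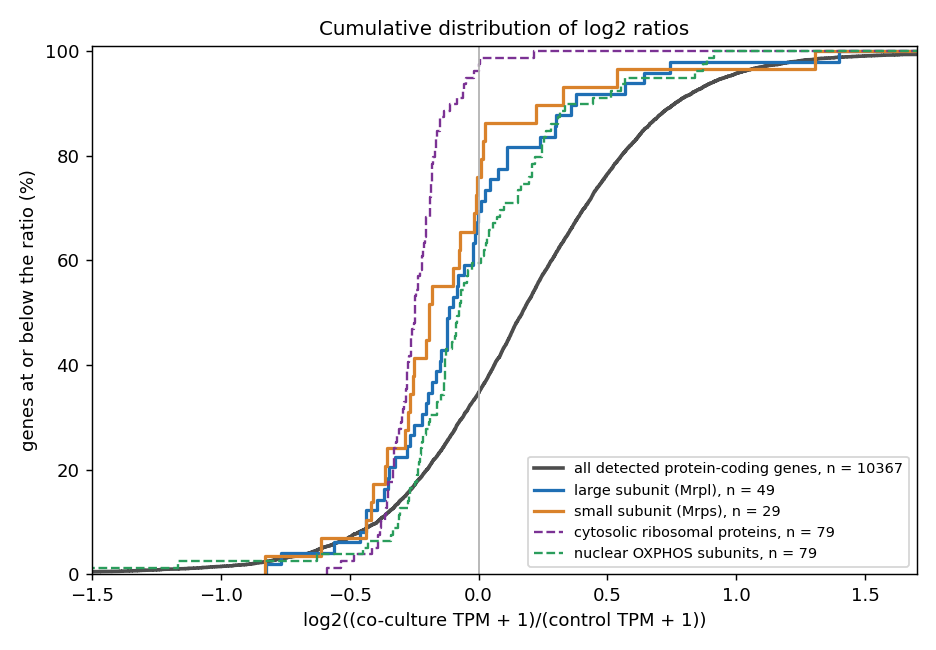
Cumulative share of genes (y axis, percent) at or below each log2 ratio (x axis) for the large and small subunit members, cytosolic ribosomal protein genes, nuclear respiratory chain and ATP synthase genes, and all detected protein-coding genes. Both member curves lie left of the curve of all genes over most of the range, with medians of -0.11 and -0.19 against 0.17.

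Among genes that build and serve the mitochondrial ribosome, the assembly factors were lower more often than all detected genes, while the shares of other lists lay near those of all detected genes. Of 29 assembly factors 19 were lower and 10 higher (65.5% lower, against 35.4% of detected genes), with a median of -0.10. The GTPase gene Gtpbp6 had 20.5 TPM in control cells and 11.3 TPM after co-culture, and the helicase gene Ddx28 had 12.2 and 7.48 TPM. These were the assembly genes at least 1.5-fold different, and Ybey, a low gene at 0.62 and 1.40 TPM, had the highest ratio, 0.57. Of 16 translation factors 5 were lower and 11 higher (68.8% higher, against 64.5% of detected genes), with a median of 0.13 that became -0.05 with a TMM scaling of the libraries. Gfm2, a ribosome recycling factor, had 4.04 and 6.53 TPM. Tufm, the elongation factor that carries tRNA to the ribosome, had 95.8 and 112 TPM, and Oxa1l, the insertase that receives new chains, had 60.6 and 47.0 TPM. Of 20 genes for mitochondrial tRNA synthetases and the glutaminyl-tRNA amidotransferase 8 were lower and 12 higher (60.0% higher), with a median of 0.18, and of -0.01 with the TMM scaling. Qrsl1 and Gatb encode subunits of that amidotransferase and lay at the ends of the list, with ratios of -0.93 and 0.81. Tars2 and Pars2 had ratios of -0.61 and 0.70.

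The RNA partners of these proteins and the products they make come from mitochondrial DNA. The rRNA gene mt-Rnr1 of the small subunit had 344 TPM in control cells and 423 TPM after co-culture, and mt-Rnr2 of the large subunit had 226 and 350 TPM. The sources used here do not give how rRNA was removed or mRNA selected, so these levels may not reflect rRNA abundance. Of 13 mitochondrially encoded protein genes 5 were lower and 8 higher (61.5% higher, near the 64.5% of detected genes). The median was 0.13, and it became -0.06 with the TMM scaling. They ranged from mt-Atp6, with 408 and 255 TPM, to mt-Co3, with 250.2 and 523 TPM. Of 9 detected genes for transcription and replication of mitochondrial DNA, Tfam had 23.1 and 23.0 TPM and Polg had 11.7 and 18.2 TPM. Among regulators of mitochondrial biogenesis, Myc had 189 TPM in control cells and 103 TPM after co-culture (-0.87), and Pprc1, a PGC-1 related coactivator, had 25.2 and 14.7 TPM (-0.74). Nrf1 had 29.2 and 25.3 TPM, Gabpa 6.22 and 8.31 TPM, Gabpb2 4.85 and 9.08 TPM and Yy1 13.6 and 21.4 TPM, and Ppargc1a was listed at 0 in both libraries. Of 11 detected genes in a list of mitochondrial stress genes 10 were lower (90.9%, against 35.4% of detected genes), with a median of -0.48. These included Atf5 with 84.9 and 33.9 TPM, the protease gene Clpp with 105 and 65.1 TPM, and the chaperone gene Dnaja3 with 45.5 and 26.8 TPM, whereas Hspd1 had 285 and 299 TPM. That list also holds Atf4 and Ddit3, at -1.83 and -4.90.

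Length and base composition moved with the ratios over all genes. Across 10367 detected protein-coding genes r was 0.22 between the log2 ratio and log10 transcript length, and -0.12 with GC content. The members have short transcripts, with a median of 1866 bases for the longest transcript, against 3386 bases for those genes. Across the 78 members r with length was -0.24 and with level -0.07. The members also had higher levels, with a median control TPM of 70.2, against 13.8 for all detected genes. At a mean TPM of at least 10, 55 of 76 members were lower, against 39.4% of the genes that passed this limit. The median of those genes was 0.11. No trend on level was removed. The median of the members lay 0.29 below that of all detected genes with the deposited values, and 0.17 below it once trends on length and GC content were removed. After that removal 39 of 78 members were below 0, against 34.1% of all detected genes. Below the median of all detected genes were 55 members. The large subunit then had a median of 0.03, above 0, and the small subunit -0.11, each against 0.17 for all detected genes. The ratios also depended on the scaling of the libraries. Scaling by the median ratio, a factor of 0.12 on the log2 scale, shifted low genes less because of the pseudocount, and 64 of 78 members were then lower against 44.6% of all detected genes. With a TMM factor of 0.19 on the log2 scale, 65 were lower against 50.8%. Rescaling without mitochondrially encoded and the most abundant genes, a factor of -0.02, worked the other way, with 50 members lower and 28 higher against 34.1% lower of all detected genes. With all 3, the median of the members was between 0.29 and 0.30 below that of all detected genes. Each of the 3 applies a single factor to a library, so this gap could change only slightly, through the pseudocount and the detection limit. Its steadiness is therefore no added support.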

How the data were processed

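RNA of 2 cultures of 4T1 cells was sequenced, 1 library per group. The authors deposited TPM values with 2 decimals, 1 column per library. GRCm38.p5, HISAT2 2.1.0 and RSEM 1.2.31 stand in the submitters' processing notes, without roles. The sources used here do not give the annotation, strandedness or filters. TPM keeps no depth, which is unknown for both libraries, and no counting intervals were computed. Of 52796 rows, 51912 carried Ensembl identifiers and 51633 of these matched GENCODE M21 symbols (GRCm38). The 884 other rows were not used.

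Log2 ratios used a pseudocount of 1, and a gene was detected at a mean TPM of at least 1. Members, lists, limits and the rule for named genes (all members, up to 4 genes per list, head-to-head neighbours) were chosen with earlier results of these data known. Neighbours and examples beyond that rule were chosen after their values were seen. Copies were found with BLAST 2.17.0 on coding sequences. Lowess trends (span 0.3, statsmodels 0.14.6) used the longest transcript. The calculations were tested on simulated data. Alternatives were pseudocounts of 0.1 and 5, no filter, a mean TPM of at least 10, 3 other scalings (the TMM factor was unweighted), subunits from structures, members without pseudogene symbols, means and trend removal. Summing copies and leaving out overlapping members were added after the data were seen.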

Additional observations from a re-analysis of the deposited data

How the results depend on the processing

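With 1 library per group no result has a replicate error, and depth is unknown. No paired analysis was possible because each group has 1 library. A median was taken to have moved when it changed by more than 0.1 on the log2 scale, and a count when it changed by more than 1.5 times. With the median ratio scaling the medians of the large and small subunit were -0.23 and -0.30. Of 78 members 14 were then higher, against 55.4% of all detected genes. With the TMM factor the medians were -0.30 and -0.38, and 13 of 78 members were higher, against 49.2% of all detected genes. By the 1.5-fold limit 11 members were lower, against 10.4% of all detected genes, and 2 were higher, against 10.8%. By the 2-fold limit 2 members were lower, against 3.16%. After length and GC trends were removed, the median of the large subunit was 0.0297, with the opposite sign. Of 78 members 39 were then higher, against 65.9% of all detected genes. Without the members that overlap a detected gene, 57 were left. Of these, 2 were at least 1.5-fold lower, against 6.37% of all detected genes, and 1 at least 2-fold higher, against 4.95%. The other alternatives moved none of these medians or counts. No member that was 1.5-fold different changed sign under any alternative. The causes of these changes were not tested.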
